A study of Mus musculus with 12 samples.

Results

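Foxp3 and 9 transcription factors that bind it or work beside it in regulatory T cells (Treg) were followed across 4 groups of sorted mouse Treg. The 10 genes were chosen by name: Foxp3, its forkhead relative Foxp1, Runx1 and its binding partner Cbfb, the Ikaros family genes Ikzf1, Ikzf2, Ikzf3 and Ikzf4, and the NFAT genes Nfatc1 and Nfatc2. All 10 were found among the 55011 genes of the count table, and all 10 passed the filter on low counts. RNA was sequenced from 12 libraries, 3 for each genotype (WT or ∆Foxp3) in each tissue (spleen or lung). The cells came from male C57BL/6 mice 21 days old and were sorted as DAPI-negative cells positive for TCRβ, CD4, GFP and CD25, with 1000 cells per library. WT mice carried Foxp3.ires.GFP, a reporter that places GFP behind an intact Foxp3. The genotype label of the spleen ∆Foxp3 mice is ∆Foxp3.EGFP.iCre X R26.YFP, and that of the lung ∆Foxp3 mice is ∆Foxp3.ires.GFP, while the protocol text names ∆Foxp3.ires.GFP for both tissues. Any comparison of the ∆Foxp3 groups between tissues therefore also differs in labelled allele, and the effects of tissue and allele cannot be told apart. By its label, the spleen ∆Foxp3 group also differs from WT in iCre, R26.YFP and the form of the reporter. In the spleen comparison of genotypes, these and the change in Foxp3 cannot be told apart. The sources used here do not say which part of Foxp3 is missing from the ∆Foxp3 alleles. Spleens were dissociated mechanically, while lungs were digested with enzymes and enriched for CD4 T cells with magnetic beads, so tissue and preparation cannot be told apart either. The labels do not say that replicates came from separate mice, so p-values measure the spread between libraries.

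Foxp3 is the forkhead transcription factor that defines the Treg lineage, and mice or humans that lack it develop fatal autoimmunity. It acts in large complexes: it forms dimers with Foxp1, binds Runx1 and NFAT, and recruits Ikaros family proteins such as Eos (Ikzf4) when it represses genes. Runx1 with Cbfb, and NFAT activated by calcium and calcineurin, also bind regulatory elements of the Foxp3 gene itself.

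Promoter windows are shown for Foxp3 and Foxp1, the genes with the largest differences between genotypes. RefSeq (GRCm38.p6, the assembly behind mm10) gave 12 windows for 6 of the 10 genes, each 300 bases from 250 before to 50 after an annotated start. Ikzf2, Ikzf3, Ikzf4 and Nfatc1 are not shown. Capitals mark matches on either strand to GGAAA (NFAT), TGGGAA (Ikaros), TGTGGT (RUNX) and TGTTTAC (forkhead). The windows of Foxp3 at chrX:7579426-7579725 and chrX:7580233-7580532 lie on the plus strand, and Foxp1 lies on the minus strand. Of its 3 windows the most upstream, at chr6:99520944-99521243, is printed.
Foxp3 upstream window: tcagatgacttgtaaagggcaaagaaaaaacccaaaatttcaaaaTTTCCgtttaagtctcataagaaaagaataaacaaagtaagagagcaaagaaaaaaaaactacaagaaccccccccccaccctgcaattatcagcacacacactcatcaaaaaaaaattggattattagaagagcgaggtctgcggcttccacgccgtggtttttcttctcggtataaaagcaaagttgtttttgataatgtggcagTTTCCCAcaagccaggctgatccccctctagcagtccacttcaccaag
Foxp3 downstream window: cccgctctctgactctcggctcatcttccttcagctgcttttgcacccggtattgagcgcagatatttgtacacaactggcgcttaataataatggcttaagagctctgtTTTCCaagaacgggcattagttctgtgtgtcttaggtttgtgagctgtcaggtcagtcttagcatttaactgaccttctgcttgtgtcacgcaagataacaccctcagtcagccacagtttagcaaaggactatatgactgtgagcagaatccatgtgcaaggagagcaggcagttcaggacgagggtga
Foxp1 most upstream window: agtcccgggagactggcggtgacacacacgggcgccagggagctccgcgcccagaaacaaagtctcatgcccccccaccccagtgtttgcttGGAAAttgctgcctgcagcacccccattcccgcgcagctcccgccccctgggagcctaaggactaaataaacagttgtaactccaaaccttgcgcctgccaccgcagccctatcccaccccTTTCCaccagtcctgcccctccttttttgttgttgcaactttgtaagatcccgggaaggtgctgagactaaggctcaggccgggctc
The upstream Foxp3 window held 2 NFAT matches, of which the second overlaps its 1 Ikaros match. The downstream Foxp3 window held 1 NFAT match. The printed Foxp1 window held 2 NFAT matches, and the other two held 0, with 1 Ikaros match at chr6:99266466-99266765 and no match to any of the motifs at chr6:99028249-99028548. Across 32851 windows of the same length, 61.3% held the NFAT letters, 25.6% the Ikaros letters, 16.8% the RUNX letters and 3.65% the forkhead letters. Of the 12 windows of these genes, 7 held an NFAT, 2 an Ikaros, 1 a RUNX and 1 a forkhead match. A match is a run of letters in these windows and not a measured site.

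Library totals ran from 3958892 to 9025150 counts, and 3 counts corresponded to 0.332 to 0.758 CPM, the library-size-scaled count used for levels throughout. All 7 T cell markers were present in every group, with summed levels of 5241 to 6343 CPM in spleen WT, 4313 to 4782 in spleen ∆Foxp3, 4992 to 5200 in lung WT and 4089 to 4652 in lung ∆Foxp3. The summed level of 8 B and plasma cell markers was 1125 to 1288 CPM in spleen WT against 76.6 to 161 in spleen ∆Foxp3, and 1938 to 1978 in lung WT against 134 to 262 in lung ∆Foxp3. Most of it was Ighm. Of the 8 markers, 2 were at 0 in every spleen WT library, the B cell marker Ms4a1 among them, and the others were detected there. In each other group 1 of the 8 was at 0 in every library. The summed level of 6 erythroid markers, mostly the globin gene Hbb-bs, was 9.10 to 16.6 CPM in spleen WT, 10.8 to 397 in spleen ∆Foxp3, 1974 to 4901 in lung WT and 1.19 to 403 in lung ∆Foxp3. That of 6 endothelial markers, mostly Pecam1, was 269.5 to 329 CPM in spleen WT against 89.7 to 147 in spleen ∆Foxp3, and 283 to 330.4 in lung WT against 113 to 119 in lung ∆Foxp3. That of 6 epithelial markers, mostly Epcam, was 21.4 to 40.7 CPM in spleen WT against 11.3 to 15.9 in spleen ∆Foxp3, and 37.8 to 206 in lung WT against 12.3 to 19.2 in lung ∆Foxp3. The sum of 5 fibroblast markers, with Fn1 the most abundant, went the other way. It was 3.86 to 4.79 CPM in spleen WT against 19.1 to 24.5 in spleen ∆Foxp3, and 7.54 to 9.67 in lung WT against 20.8 to 48.9 in lung ∆Foxp3. For 8 myeloid markers, with Ctss the most abundant, the sum was 354 to 490 CPM in spleen WT and 248 to 419 in spleen ∆Foxp3. In lung it was 259 to 508 CPM in WT and 160 to 237 in ∆Foxp3. Summed levels of 10 cell cycle genes were 298 to 483 CPM in spleen WT, 1747 to 4586 in spleen ∆Foxp3, 1173 to 1886 in lung WT and 2627 to 3873 in lung ∆Foxp3. The part of these genes in the results was not tested. In sorted bulk samples, fewer cells with a transcript and less transcript per cell cannot be told apart. The gate gene Cd4 and Cd3e, which encodes a chain of the T cell receptor complex, were detected in every library, at 604 to 917 CPM and 663 to 927 CPM. By edgeR, Cd4 was higher in ∆Foxp3 in spleen (log2 0.38 ± 0.12, SE; adjusted p = 0.0245) and lung (0.37 ± 0.12; adjusted p = 0.034). Cd3e was lower in ∆Foxp3 in spleen (log2 −0.35 ± 0.11; adjusted p = 0.0273) and did not pass in lung (adjusted p = 0.366). Il2ra, which encodes CD25, averaged 794 ± 92.2 CPM in spleen WT and 392 ± 139 in spleen ∆Foxp3 (SD, n = 3), a fall of log2 −1.02 ± 0.23 (SE; adjusted p = 0.00531). In lung it averaged 639 ± 62.7 CPM in WT and 456 ± 109 in ∆Foxp3 (SD, n = 3), and that difference did not pass the test (adjusted p = 0.156).

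Foxp3 RNA (chrX:7573644-7595245, plus strand; all gene positions are those of the GENCODE vM21 annotation of GRCm38) was lower in ∆Foxp3 cells of both tissues but was not absent from any library. Libraries 1, 2 and 3 of spleen WT held 1026, 991 and 1096 CPM, and those of spleen ∆Foxp3 159, 114 and 227 CPM. The lung libraries held 1418, 1361 and 1328 CPM with WT Foxp3 and 469, 385 and 189 CPM with ∆Foxp3. Every ∆Foxp3 library lay below every WT library, and each lung WT library lay above each spleen WT library, while the ∆Foxp3 libraries of the tissues overlapped. The log2 change of Foxp3 was −2.64 ± 0.29 in spleen (6.22-fold lower; adjusted p = 2.93e-05), and lung showed −1.98 ± 0.29 (3.94-fold lower; adjusted p = 0.00041), by edgeR's quasi-likelihood test adjusted over 13295 genes, with the SE of the fit after each log2 value. Relative to the WT mean, the spleen ∆Foxp3 libraries kept 15.3%, 10.97% and 21.8% of the level and the lung ∆Foxp3 libraries 34.3%, 28.1% and 13.8%. The lowest ∆Foxp3 library still held 475 Foxp3 counts. The counts are summed over the whole gene, so they do not show which exons the remaining transcripts hold.

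Flicr, a noncoding RNA of the Foxp3 locus, shares 853 nt of exon with Foxp3 on the same strand in the annotation, so reads in that stretch could go to either gene. Its levels were 90.8, 135 and 102 CPM in spleen WT and 29.1, 28.5 and 31.0 in spleen ∆Foxp3. The lung values were 61.6, 59.6 and 52.7 CPM for WT, then 43.4, 35.1 and 17.6 for ∆Foxp3. The genotypes did not overlap in either tissue, and WT spleen exceeded WT lung, the opposite order to Foxp3. Flicr fell in both tissues, in spleen by log2 −1.88 ± 0.26 (adjusted p = 0.000132) and in lung by −0.85 ± 0.26 (adjusted p = 0.0325), and the interaction did not pass (log2 1.03 ± 0.37; adjusted p = 0.317). The lung call was lost without any one of lung WT 1, 2 or 3 or lung ∆Foxp3 2 or 3 (adjusted p = 0.0563 to 0.129). The difference of Flicr between WT tissues did not pass (log2 −0.91 ± 0.25 for lung minus spleen; adjusted p = 0.0577). Genes on the opposite strand that overlap Foxp3 exons (Ppp1r3f, Gm36995 and Ccdc22) held at most 42 counts in a library.

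Foxp1, a forkhead protein that pairs with Foxp3 and helps hold it on DNA (gene at chr6:98925338-99522721, minus strand), fell in both tissues. It had spleen values of 492, 448 and 432 CPM for WT and 170, 137 and 129 for ∆Foxp3. The lung values were 495, 432 and 384 CPM (WT) and 178, 127 and 83.8 CPM (∆Foxp3). No ∆Foxp3 library reached the lowest WT library in either tissue. The differences were log2 −1.66 ± 0.22 in spleen (3.15-fold; adjusted p = 7.71e-05) and −1.75 ± 0.22 in lung (3.37-fold; adjusted p = 9.96e-05). The interaction, which tests whether the genotype difference itself differs between tissues, was log2 −0.10 (95% interval −0.74 to 0.54; adjusted p = 0.976). Gm20696, annotated as a protein-coding gene, shares 300 nt of exon with Foxp1 on the same strand. It averaged 124 ± 6.04 CPM in spleen WT and 21.5 ± 3.87 in spleen ∆Foxp3, and 146 ± 21.7 in lung WT and 20.6 ± 14.4 in lung ∆Foxp3 (SD, n = 3). Gm20696 fell in both tissues, with log2 −2.53 ± 0.38 for spleen (adjusted p = 0.000357) and −2.83 ± 0.39 for lung (adjusted p = 0.000322), where the value without lung ∆Foxp3 1 was −3.42. How the shared exon was counted for Foxp1 and Gm20696 is a detail not given in the sources used here.

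**Figure D1:**
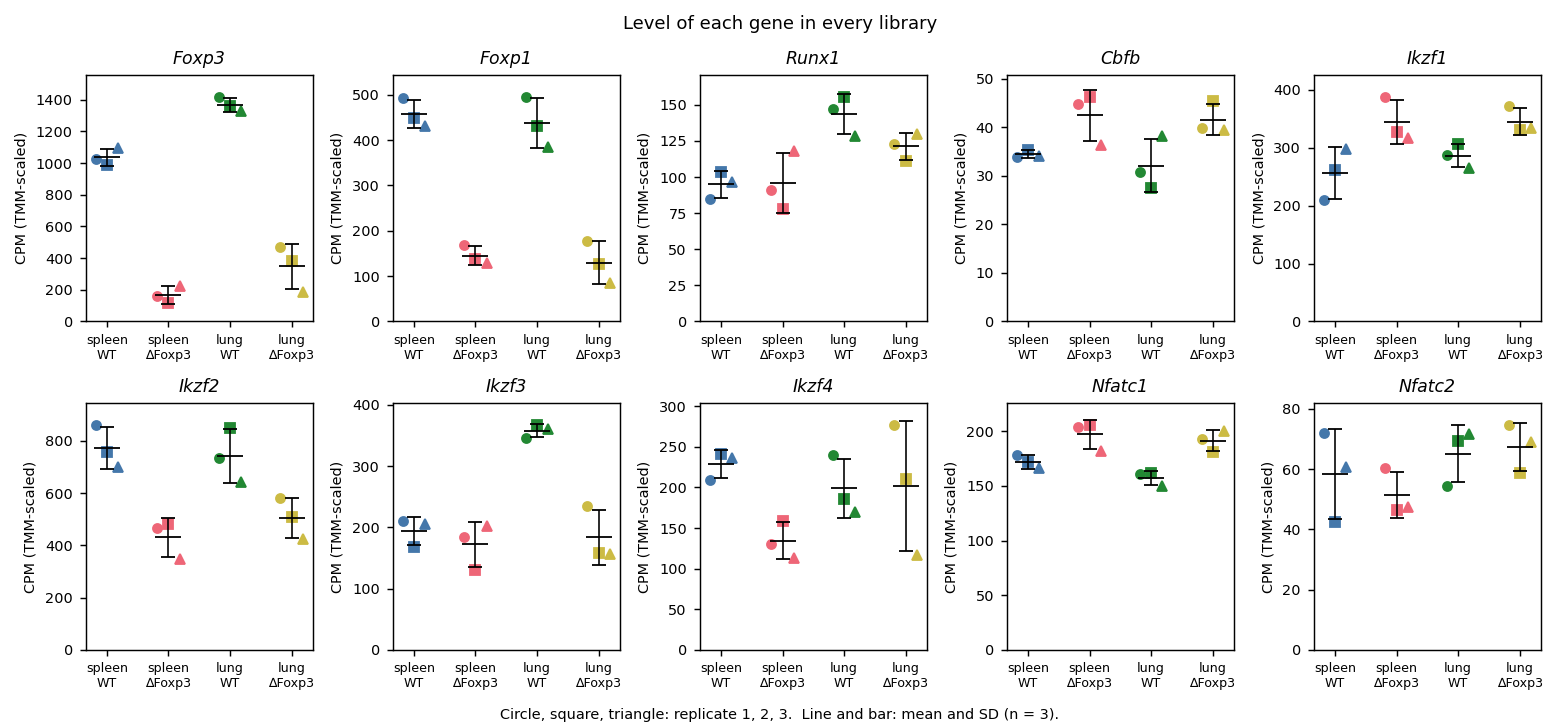
TMM-scaled CPM of each of the 10 genes (vertical axes, linear and starting at 0) in the 12 libraries (points) of the 4 groups, with the mean and SD of each group (n = 3). Foxp3 and Foxp1 sit far lower in both ∆Foxp3 groups, from 83.8 to 469 CPM, while Runx1 runs from 77.7 to 155 CPM and Nfatc2 from 42.3 to 74.5 CPM over the 12 libraries.

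Runx1 (chr16:92601466-92826149, minus strand), the DNA-binding subunit of core binding factor, did not pass the test between genotypes in either tissue. It measured 85.1, 103 and 96.6 CPM in the spleen WT libraries and 91.1, 77.7 and 118 in those of spleen ∆Foxp3. Lung WT libraries had 147, 155 and 128 CPM, against 123, 111 and 130 in lung ∆Foxp3. Genotypes overlapped in both tissues, and every lung WT library lay above every spleen WT library. The genotype differences were log2 0.01 in spleen (95% interval −0.34 to 0.37; adjusted p = 0.963) and −0.24 in lung (−0.60 to 0.11; adjusted p = 0.334). Cbfb (chr8:105170674-105217989, plus strand), the partner subunit that binds no DNA itself but stabilises RUNX proteins on it, held 34.0, 35.4 and 34.1 CPM in spleen WT and 44.8, 46.3 and 36.4 in spleen ∆Foxp3. For lung, the values were 30.8, 27.5 and 38.1 CPM with WT and 39.9, 45.4 and 39.5 with ∆Foxp3. Each ∆Foxp3 library was above each WT library of its tissue, but the differences of log2 0.30 (95% interval −0.11 to 0.70; adjusted p = 0.269) and 0.37 (−0.04 to 0.78; adjusted p = 0.192) did not pass.

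Of 6 tested relatives of the 10 genes, 2 were higher (Runx2 and Runx3), 1 was lower (Nfat5) and 3 did not pass in spleen, and 1 was higher (Runx2), 1 was lower (Nfat5) and 4 did not pass in lung, with median log2 differences of −0.55 and −0.38. Of all genes tested, 26.6% were called in spleen and 20.2% in lung, and their medians were −0.02 and −0.01. Runx2, best known as the regulator of bone formation, had spleen values of 12.3, 7.50 and 16.4 CPM for WT and 61.2, 87.98 and 88.4 for ∆Foxp3. Lung libraries gave 14.4, 25.9 and 26.7 CPM for WT and 70.6, 117 and 142 for ∆Foxp3. It rose by log2 2.71 ± 0.33 in spleen (adjusted p = 4.08e-05) and 2.29 ± 0.32 in lung (adjusted p = 0.000267), with no overlap of genotypes in either tissue. Runx3, which represses Cd4 in cytotoxic T cells, rose by log2 1.22 ± 0.28 in spleen (adjusted p = 0.00462), from 26.6 ± 9.13 to 61.6 ± 9.78 CPM (SD, n = 3). For lung, the Runx3 difference of log2 0.54 ± 0.27 did not pass (adjusted p = 0.181). Divided by exon length, the summed level of the 3 RUNX genes was 14.6 ± 2.55 CPM per kb in spleen WT and 29.2 ± 3.61 in spleen ∆Foxp3, and 25.1 ± 3.53 in lung WT and 37.9 ± 5.83 in lung ∆Foxp3. Runx1 held 60.5%, 55.4% and 48.6% of that sum in spleen WT and 27.2%, 24.4% and 29.5% in spleen ∆Foxp3. In lung it held 57.7%, 46.1% and 40.9% in WT and 32.8%, 22.5% and 26.0% in ∆Foxp3. The Runx2 share averaged 9.51% in spleen WT and 30.8% in spleen ∆Foxp3, and 9.92% in lung WT and 32.2% in lung ∆Foxp3. Both shares kept apart by genotype, in the same direction, when the longest transcript or no length was used for scaling, although the shares themselves moved.

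Ikzf2 (Helios; chr1:69531214-69687245, minus strand), which marks most thymus-derived Treg and stabilises them, measured 859, 757 and 701 CPM in the spleen WT libraries and 465, 484 and 346 in those of spleen ∆Foxp3. The lung values were 734, 849 and 642 CPM (WT) and 581, 509 and 426 CPM (∆Foxp3). All ∆Foxp3 libraries lay below all WT libraries of their tissue. Ikzf2 fell in both tissues, 1.79-fold in spleen (log2 −0.84 ± 0.17; adjusted p = 0.00181) and 1.47-fold in lung (log2 −0.55 ± 0.17; adjusted p = 0.0292). The lung call was lost without spleen ∆Foxp3 1, lung WT 1 or 2, or lung ∆Foxp3 2 or 3, with adjusted p = 0.0513 to 0.17. Gm28112, a noncoding gene within an Ikzf2 intron on the same strand that shares no exon with it, averaged 358 ± 58.3 CPM in spleen WT and 166 ± 44.7 in spleen ∆Foxp3. In lung it averaged 357 ± 77.6 CPM in WT and 177 ± 46.8 in ∆Foxp3 (SD, n = 3). It fell by log2 −1.11 ± 0.24 (adjusted p = 0.00352) and −1.01 ± 0.24 (adjusted p = 0.00872), and the lung call was lost without lung WT 2 (adjusted p = 0.0573) or lung ∆Foxp3 3 (adjusted p = 0.0554).

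Ikzf4 (Eos; chr10:128630843-128645991, minus strand), a corepressor that Foxp3 uses to silence genes, passed between genotypes in spleen and not in lung. It held 209, 241 and 236 CPM in spleen WT and 131, 158 and 113 in spleen ∆Foxp3, with no overlap. Lung WT libraries had 240, 186 and 170 CPM and lung ∆Foxp3 libraries 276, 210 and 117 CPM, so that the ∆Foxp3 libraries spanned the whole WT range. Ikzf4 fell by log2 −0.77 ± 0.25 in spleen (1.71-fold; adjusted p = 0.0309), and the lung difference was 0.02 (95% interval −0.50 to 0.54; adjusted p = 0.971). The spleen call was lost without spleen WT 2 or 3 or spleen ∆Foxp3 1 or 3 (adjusted p = 0.0744 to 0.0995). The difference between the tissues' genotype differences was log2 0.79 ± 0.35 and did not pass (95% interval 0.05 to 1.53; adjusted p = 0.493 by edgeR).

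Ikzf3 (Aiolos; chr11:98464902-98546031, minus strand), a lymphoid relative of Ikaros, passed between genotypes in lung and not in spleen. It had spleen values of 209.8, 168 and 205 CPM for WT and 184, 131 and 202 for ∆Foxp3, which overlapped. Lung WT libraries had 346, 366 and 360 CPM and lung ∆Foxp3 libraries 235, 159 and 157 CPM, which did not. Lung WT thus stood above the other 3 groups, whose libraries overlapped one another. Ikzf3 fell in lung by log2 −0.96 ± 0.19 (1.94-fold; adjusted p = 0.00265), and the spleen difference was −0.17 (95% interval −0.57 to 0.22; adjusted p = 0.537). The interaction was log2 −0.79 ± 0.26 (95% interval −1.35 to −0.22; adjusted p = 0.276 by edgeR), so a difference between the tissues was not called, although limma with quality weights called it (adjusted p = 0.0412, the lowest of the alternatives, whose highest was 0.53 apart from the test against a fold of 1.5).

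Ikzf1 (Ikaros; chr11:11685003-11772926, plus strand), the founding member of the family and a repressor that works with chromatin remodelling complexes, was the one gene of the 10 called higher in ∆Foxp3 than in WT cells. It measured 209.6, 261 and 297 CPM in the spleen WT libraries and 387, 328 and 317 in those of spleen ∆Foxp3. Lung WT libraries had 287, 306 and 265 CPM, against 372, 330 and 333 in lung ∆Foxp3. In both tissues each ∆Foxp3 library exceeded each WT library. Ikzf1 rose by log2 0.43 ± 0.15 in spleen (1.34-fold; adjusted p = 0.0441), and the lung difference of 0.27 (95% interval −0.05 to 0.58; adjusted p = 0.217) did not pass. The spleen call was close to the threshold: it was lost without spleen WT 1 or 2 or spleen ∆Foxp3 1 or 2 (adjusted p = 0.055 to 0.127), and with library totals alone (0.0888) or upper-quartile scaling (0.0883), the adjusted p running from 0.0165 to 0.137 in the alternatives other than the test against a fold of 1.5.

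Within the Ikaros family, scaled by exon length, the larger share passed from Ikzf2 in WT to Ikzf1 in ∆Foxp3 cells. Ikzf1 held 21.4%, 26.6% and 29.4% of the family's summed level in spleen WT and 44.7%, 40.5% and 43.3% in spleen ∆Foxp3. In lung it held 25.8%, 26.6% and 26.7% in WT and 34.3%, 36.9% and 43.6% in ∆Foxp3. The Ikzf2 share averaged 38.8% in spleen WT and 26.6% in spleen ∆Foxp3, and 33.9% in lung WT and 27.6% in lung ∆Foxp3. Neither share overlapped between genotypes in either tissue, and this was so with each of the 3 length scalings tried. Without length scaling, Ikzf2 was the larger of the pair in every group's mean, at 39.7% against 31.8% for Ikzf1 in spleen ∆Foxp3, so which of the pair is larger depends on that scaling. The family's summed level was 172 ± 3.01 CPM per kb in spleen WT, 139 ± 11.6 in spleen ∆Foxp3, 188 ± 14.4 in lung WT and 158 ± 27.8 in lung ∆Foxp3 (SD, n = 3). Ikzf5 (Pegasus) made up less of the family than any other member, at 0.138% to 0.389% in the group means.

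**Figure D2:**
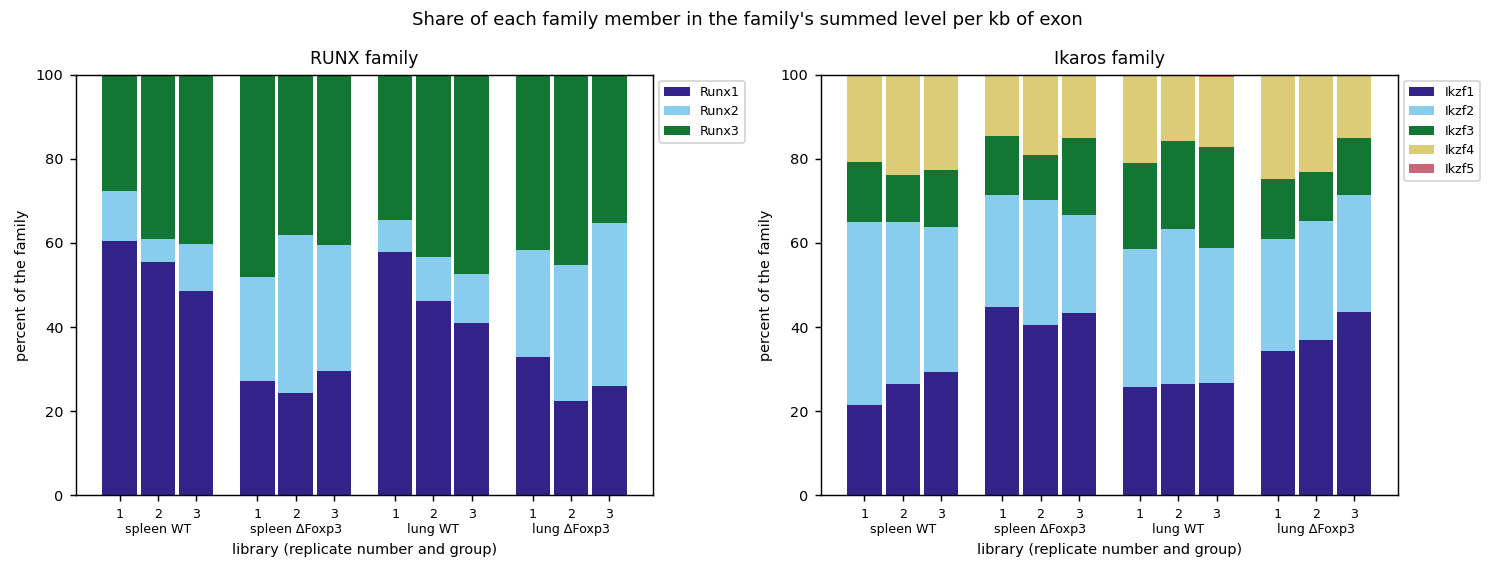
Stacked bars of the percent of each family's summed CPM per kb of exon that its genes held in each of the 12 libraries (horizontal axis, replicate number within group). The mean Runx1 part was 54.9% in spleen WT and 27.0% in spleen ∆Foxp3, and 48.3% and 27.1% in lung, while the mean Ikzf1 part was 25.8% and 42.8% in spleen and 26.4% and 38.3% in lung.

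Nfatc1, an NFAT protein that T cells induce on activation, varied little. It held 178, 172 and 166 CPM in spleen WT and 204, 205 and 182 in spleen ∆Foxp3. For lung, the values were 161, 161 and 150 CPM with WT and 193, 181 and 201 with ∆Foxp3. The ∆Foxp3 libraries were all above the WT libraries, yet the differences of log2 0.20 (95% interval −0.06 to 0.46; adjusted p = 0.256) and 0.28 (0.02 to 0.54; adjusted p = 0.115) did not pass, and limma alone of the alternatives called the lung difference (adjusted p = 0.0403, with values up to 0.55 under the others, leaving aside the test against a fold of 1.5). Nfatc2 (chr2:168476410-168601657, minus strand), the NFAT protein present in resting T cells whose complex with Foxp3 on DNA has been solved, had spleen values of 71.8, 42.3 and 60.6 CPM for WT and 60.3, 46.5 and 47.4 for ∆Foxp3. Lung libraries gave 54.3, 69.5 and 71.7 CPM for WT and 74.5, 58.7 and 69.0 for ∆Foxp3. The genotypes overlapped in both tissues. The differences were log2 −0.18 (95% interval −0.63 to 0.26; adjusted p = 0.562) and 0.05 (−0.40 to 0.50; adjusted p = 0.904). Among the other NFAT genes, Nfat5, which answers to osmotic stress, fell by log2 −0.99 ± 0.22 in spleen (adjusted p = 0.00433) and −0.83 ± 0.22 in lung (adjusted p = 0.0176). The lung call of Nfat5 was lost without lung WT 1 or 2 or lung ∆Foxp3 2 or 3 (adjusted p = 0.0643 to 0.0998).

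Across the 10 genes, 5 were called between genotypes in spleen, 1 higher (Ikzf1) and 4 lower (Foxp3, Foxp1, Ikzf2 and Ikzf4). Of all genes tested, 26.6% were called in spleen, 14.1% higher and 12.5% lower. In lung 4 were called, all lower (Foxp3, Foxp1, Ikzf2 and Ikzf3), beside 20.2% of all genes tested, 9.74% higher and 10.5% lower. Groups did not overlap for 7 of the 10 genes in each tissue, where 38.2% of all genes tested in spleen and 45.3% in lung did not overlap. The median log2 difference of the 10 was −0.18 in spleen and −0.11 in lung, and that of all genes tested was −0.02 and −0.01. Foxp3, Foxp1 and Ikzf2 were called lower in both tissues.

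**Figure D3:**
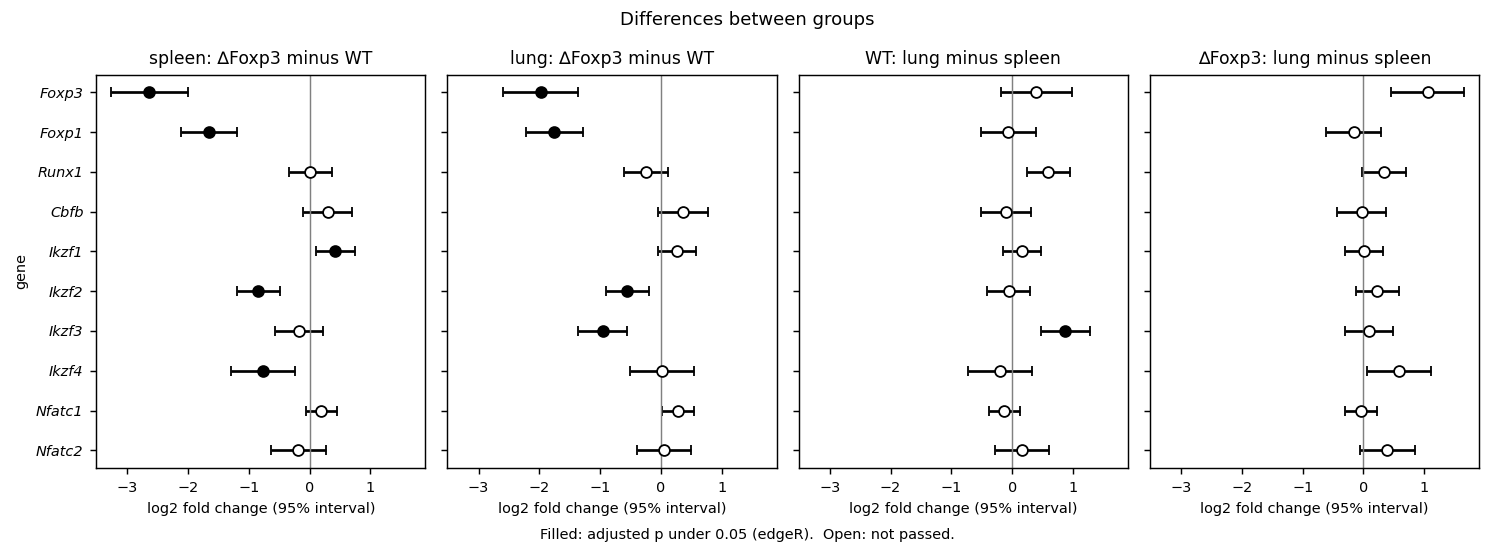
Log2 fold changes of the 10 genes with 95% intervals (horizontal axes) for ∆Foxp3 minus WT in each tissue and for lung minus spleen in each genotype; filled points passed the test. Foxp3 and Foxp1 stand at −2.64 and −1.66 in spleen and −1.98 and −1.75 in lung, and Ikzf3 alone passed between WT tissues, at 0.88.

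Between the tissues of WT mice, Ikzf3 was the one gene called. It was higher in lung by log2 0.88 ± 0.19 (1.84-fold; adjusted p = 0.0151), where 4.13% of all genes tested were called. Without spleen WT 2 the adjusted p was 0.0741, without lung WT 2 it was 0.0512 and without lung WT 3 it was 0.0502. The Runx1 difference of log2 0.60 ± 0.17 (lung minus spleen) did not pass (adjusted p = 0.0593), and it passed with DESeq2 (0.0148), with limma (0.0229) and without spleen ∆Foxp3 2 (0.0336) or 3 (0.0264), with values up to 0.244 elsewhere, again leaving aside the fold test. Foxp3 differed by log2 0.40 (95% interval −0.19 to 0.99; adjusted p = 0.476). The WT tissues did not overlap for 4 of the 10 genes (Foxp3, Runx1, Ikzf3 and Nfatc1), against 25.6% of all genes tested.

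Between the ∆Foxp3 groups, edgeR called 0 of the 10 genes (0.722% of all genes tested) and DESeq2 called 1 (1.77% of all genes tested). The lung minus spleen difference of Foxp3 was log2 1.06 ± 0.28 (adjusted p = 0.144). The call depended on the libraries and the method: without lung ∆Foxp3 3 the difference was 1.37 (adjusted p = 0.014), DESeq2 called it (0.0106), and so did the fit with no low-count filter (9.28e-06), while the highest value of the alternatives other than the fold test was 0.419. For 0 of the 10 genes were the groups apart, against 15.5% of all genes tested. In the interaction 0 of the 10 were called by edgeR, beside 0.925% of all genes tested, and 1 by limma (Ikzf3), beside 1.65%. For Foxp3 the interaction was log2 0.66 (95% interval −0.18 to 1.50; adjusted p = 0.699). As stated, both comparisons set alleles with different labels beside each other.

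Scaled by exon length, the order of the levels changed with genotype. In spleen WT, Foxp3 led with 227 ± 11.6 CPM per kb, followed by Ikzf2 (66.5 ± 6.93), Ikzf1 (44.3 ± 7.64), Ikzf4 (38.1 ± 2.85), Foxp1 (33.2 ± 2.26), Nfatc1 (23.0 ± 0.814), Ikzf3 (22.2 ± 2.59), Cbfb (9.91 ± 0.223), Runx1 (7.90 ± 0.771) and Nfatc2 (5.51 ± 1.41; SD, n = 3 for each). Ikzf1 and Ikzf4, Ikzf4 and Foxp1, and Nfatc1 and Ikzf3 overlapped as neighbours in that order. In lung WT the order began likewise, with Foxp3 at 299 ± 9.93, Ikzf2 at 63.9 ± 8.93 and Ikzf1 at 49.6 ± 3.52 CPM per kb, and Ikzf3 (40.8 ± 1.21) came next, in a range that overlapped Ikzf4 (33.2 ± 6.09). In spleen ∆Foxp3, Ikzf1 led at 59.6 ± 6.55 CPM per kb without overlapping Ikzf2 (37.2 ± 6.43), which overlapped Foxp3 (36.4 ± 12.4). In lung ∆Foxp3, Foxp3 (75.9 ± 31.4) and Ikzf1 (59.7 ± 4.01) overlapped at the top. Foxp1 moved from 5th of 10 in spleen WT to 8th in spleen ∆Foxp3 and from 6th in lung WT to 9th in lung ∆Foxp3, and Nfatc2 had the lowest mean in all 4 groups. Foxp1 overlapped Cbfb and Runx1 in spleen ∆Foxp3, and Runx1 and Nfatc2 in lung ∆Foxp3. These places depend on the exon union as the length, for Foxp1 13751 nt against 7177 nt for its longest transcript. Without length scaling, Ikzf2 exceeded Ikzf1 in spleen ∆Foxp3, at means of 431 and 344 CPM.

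The lung ∆Foxp3 libraries were unlike one another for several of these genes. Library 1 was the highest of the 3 for 7 of the 10 genes and library 3 the lowest for 6. The highest library exceeded the lowest 2.49-fold for Foxp3, 2.36-fold for Ikzf4 and 2.13-fold for Foxp1, and 1.11-fold to 1.27-fold for Runx1, Cbfb, Ikzf1, Nfatc1 and Nfatc2. Such an order of libraries was not particular to this group. Library 3 was also the lowest for 6 of the 10 genes in spleen ∆Foxp3 and for 7 in lung WT. In spleen ∆Foxp3 the highest library exceeded the lowest 1.99-fold for Foxp3. Lung ∆Foxp3 3 also had the most genes detected of the 12 libraries, 23649, and the largest share of mitochondrial counts, 2.44% against 1.40% to 1.63% elsewhere. The part of these in the result was not tested. Without that library, Foxp3 and Foxp1 were still called lower in lung.

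**Figure D4:**
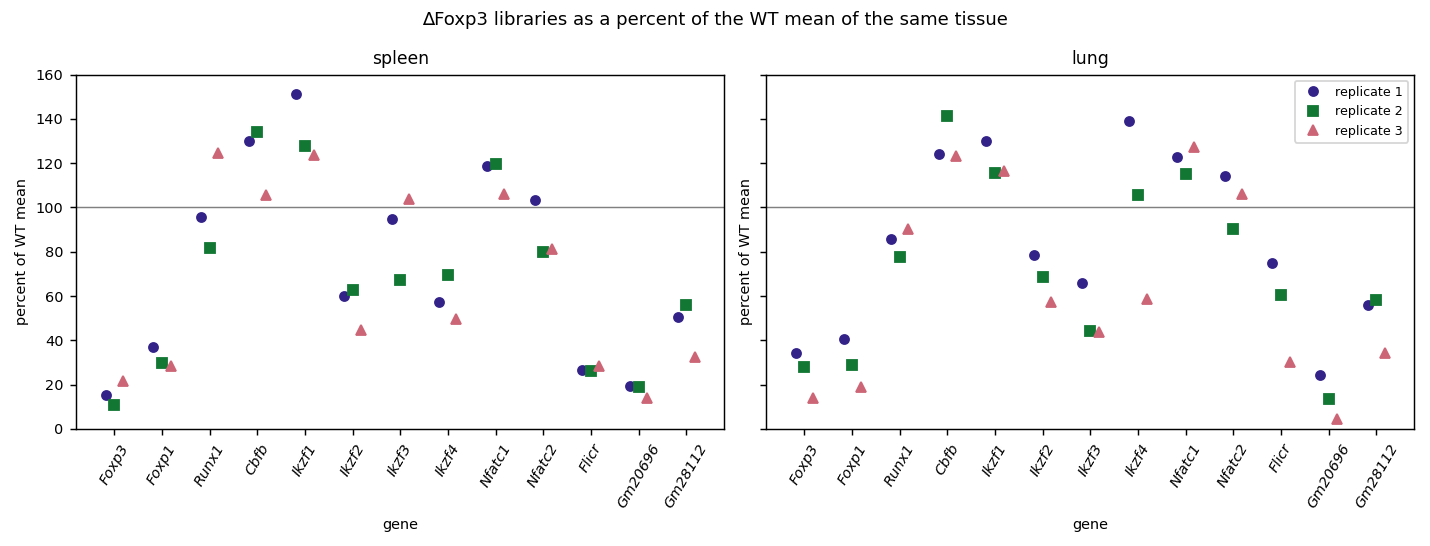
Level in each ∆Foxp3 library as a percent of the WT mean of the same tissue (vertical axis, with a line at 100) for the 10 genes and 3 genes at their loci. Foxp3 lies at 10.97% to 21.8% in spleen and 13.8% to 34.3% in lung, and Ikzf4 spreads from 58.9% to 139% in lung.

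The genes whose centred log2 profile over the 12 libraries lay closest to that of Foxp3 were Mtss1, Itga6, Gm16565, Sgk3 and Adamts6. Their root mean square distances from Foxp3 were 0.39, 0.41, 0.41, 0.42 and 0.43 log2 units, where Foxp3 itself spread by 1.30 around its own mean. Mtss1, a scaffold that links membranes and actin, was at 154, 131 and 137 CPM in spleen WT, 28.0, 26.6 and 28.3 in spleen ∆Foxp3, 166, 169 and 158 in lung WT and 42.2, 49.4 and 43.3 in lung ∆Foxp3. Its ∆Foxp3 libraries were tight in both tissues, while those of Foxp3 were not. Itga6 is an integrin subunit, Sgk3 a kinase and Adamts6 a secreted metalloprotease. With a prior count of 0.5 in place of 2, 4 of these 5 genes were again among the nearest. The nearest to Foxp1 were Cd27 (0.16), a costimulatory receptor, Gm16152 (0.18) and Cd96 (0.20). Runx1 lay nearest to Clasrp, Pitpnm1 and Herc1 (0.13 to 0.14), Cbfb to Uba1, Nol12 and Thoc1 (0.10 to 0.11), and Ikzf1 to Traf7, Nedd9 and Lims1 (0.11 to 0.12). Ikzf2 lay nearest to Rbm5, Kmt2e and Git2 (0.08 to 0.12) and Ikzf3 to Zbtb25, Zfp395 and Sdcbp2 (0.20 to 0.21). Among the 3 genes nearest to Ikzf4 were Mbnl3 (0.21) and Ifi47 (0.22), an interferon-responsive gene. Nfatc1 lay nearest to Eif3m, AI597479 and Fermt3 (0.08 to 0.10) and Nfatc2 to Wrn, Mbd2 and Rab10 (0.16). For genes that hardly moved, such as Nfatc1 with a spread of 0.14, a small distance says little.

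Other genes of these pathways were taken as lists, read against the percentages of all genes called and the medians of all genes tested (−0.02 in spleen and −0.01 in lung). Of 19 regulators of the Foxp3 locus, 3 were higher, 8 lower and 8 did not pass in spleen, and 2 were higher, 7 lower and 10 did not pass in lung, with median log2 differences of −0.52 and −0.08. Foxo1, which with Foxo3 turns on Foxp3, fell by log2 −2.14 ± 0.19 in spleen (adjusted p = 4.59e-06) and −2.36 ± 0.19 in lung (adjusted p = 3.76e-06). Tet3, which acts in DNA demethylation, fell by −0.92 ± 0.14 (adjusted p = 0.000202) and −1.10 ± 0.14 (adjusted p = 9.43e-05). In lung, Stat5b, which carries the IL-2 signal, fell by −1.35 ± 0.19 (adjusted p = 0.000294) and the genome organiser Satb1 by −1.03 ± 0.17 (adjusted p = 0.00086). In spleen, the maintenance methyltransferase Dnmt1 rose by 2.04 ± 0.22 (adjusted p = 1.54e-05) and its recruiting factor Uhrf1 by 4.05 ± 0.33 (adjusted p = 3.24e-06). Uhrf1 was also called higher in lung, by 1.22 ± 0.29 (adjusted p = 0.00894). Both genes are also known to follow DNA replication, and the part of replication in their differences was not tested. Of 10 cell cycle genes, all 10 rose in spleen, and 5 rose and 5 did not pass in lung, with medians of 3.64 and 1.08. Kif11, a motor of the mitotic spindle, rose by 4.51 ± 0.32 in spleen (adjusted p = 1.15e-06) and 1.44 ± 0.27 in lung (adjusted p = 0.00222).

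Of 18 tested genes of calcineurin and NFAT control, 1 was higher, 2 lower and 15 did not pass in spleen, and 0 were higher, 1 lower and 17 did not pass in lung (medians −0.10 and −0.22). In spleen, Dyrk2, a kinase that primes NFAT for export from the nucleus, fell by log2 −1.52 ± 0.26 (adjusted p = 0.000678), the calcineurin subunit gene Ppp3cc rose by 1.06 ± 0.27 (adjusted p = 0.00986) and the kinase Gsk3b fell by −0.51 ± 0.15 (adjusted p = 0.0185). The Gsk3b call was lost without spleen WT 2 or spleen ∆Foxp3 3 (adjusted p = 0.0678 to 0.0726). In lung the calcium sensor Stim1 fell by −0.48 ± 0.14 (adjusted p = 0.0233), a call lost without any one of the 6 lung libraries (adjusted p = 0.0614 to 0.128).

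Of 21 other proteins known to bind Foxp3, 2 were higher, 3 lower and 16 did not pass in spleen, and 1 was higher, 5 lower and 15 did not pass in lung (medians −0.18 and −0.10). Lef1, which acts with TCF1 in T cells, fell by log2 −1.36 ± 0.22 in spleen (adjusted p = 0.000375) and −1.36 ± 0.22 in lung (adjusted p = 0.000652). Gata3, the Th2 regulator, rose by 0.81 ± 0.24 (adjusted p = 0.0223) and 1.13 ± 0.24 (adjusted p = 0.00497), and its spleen call was lost without spleen WT 2 or 3 or spleen ∆Foxp3 2 (adjusted p = 0.0697 to 0.124). In spleen the histone methyltransferase Ezh2 rose by 0.99 ± 0.23 (adjusted p = 0.00465) and the deubiquitinase Usp21 fell by −0.54 ± 0.16 (adjusted p = 0.0219), a call lost without spleen WT 1 or spleen ∆Foxp3 1 or 3 (adjusted p = 0.0543 to 0.0748). In lung Hdac9 held 36 counts over lung WT and 1 over lung ∆Foxp3, a pooled ratio of 35.1 with a 95% counting interval of 5.92 to 1426, and its call was lost without lung ∆Foxp3 3 (adjusted p = 0.0635). The fitted log2 difference of Hdac9, −4.83, became −6.86 without lung ∆Foxp3 2.

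Of 15 tested corepressor genes of the Ikaros family, 2 were higher, 2 lower and 11 did not pass in spleen, and 1 was higher, 1 lower and 13 did not pass in lung (medians 0.09 and 0.24). Chd3, a remodeller of the NuRD complex that Ikaros proteins join, fell by log2 −1.87 ± 0.17 in spleen (adjusted p = 5.54e-06) and −1.69 ± 0.17 in lung (adjusted p = 1.97e-05). The NuRD subunit gene Rbbp7 rose by 1.06 ± 0.18 (adjusted p = 0.000585) and 1.03 ± 0.18 (adjusted p = 0.00126). The NuRD genes Gatad2b and Mta2 were called in spleen at log2 −0.59 ± 0.19 (adjusted p = 0.0355) and 0.40 ± 0.14 (adjusted p = 0.0441). The Gatad2b call was lost without spleen WT 2 or 3, spleen ∆Foxp3 2 or 3, lung WT 1, 2 or 3 or lung ∆Foxp3 3 (adjusted p = 0.0551 to 0.126). That of Mta2 was lost without spleen WT 2 or 3, spleen ∆Foxp3 1 or 2 or lung WT 2 (adjusted p = 0.0526 to 0.136). Of 4 tested Groucho-type corepressors of RUNX proteins, 0 were higher, 1 lower and 3 did not pass in each tissue (medians −0.20 and −0.73). Tle2 held 36 counts over spleen WT and 1 over spleen ∆Foxp3, a pooled ratio of 26.9 with a 95% counting interval of 4.52 to 1090. Its call was lost without spleen WT 2 or 3, any one spleen ∆Foxp3 library, lung WT 1 or 2 or lung ∆Foxp3 3 (adjusted p = 0.0559 to 0.148). The fitted log2 difference of Tle2, −4.42, became −3.47 without spleen WT 3, −6.35 without spleen ∆Foxp3 1 and −3.79 without spleen ∆Foxp3 3. Tle4 fell in lung by −1.03 ± 0.30 (adjusted p = 0.0249), a call lost without lung WT 1 or 3 or lung ∆Foxp3 2 or 3 (adjusted p = 0.0589 to 0.131).

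Genes listed here as raised or lowered by Foxp3 were called in both directions. Of 18 genes listed as activated by Foxp3, 3 were higher, 8 lower and 7 did not pass in spleen. In lung 3 were higher, 4 lower and 11 did not pass (medians −0.71 in spleen and −0.42 in lung). Lrrc32, the TGF-β docking receptor of Treg, fell by log2 −2.97 ± 0.44 in spleen (adjusted p = 0.000449), and Izumo1r, a folate receptor family protein abundant on Treg, fell by −1.51 ± 0.26 in spleen (adjusted p = 0.000812) and −1.54 ± 0.26 in lung (adjusted p = 0.00123). Socs2 fell in spleen by −1.07 ± 0.19 (adjusted p = 0.000709). The cytokine subunit gene Ebi3 rose by 1.61 ± 0.27 (adjusted p = 0.000545) and 1.83 ± 0.27 (adjusted p = 0.00041), and in lung Fgl2 rose by 2.46 ± 0.38 (adjusted p = 0.000872) and Il10 by 4.02 ± 0.62 (adjusted p = 0.00096), the last being 5.00 without lung WT 1. Of 11 tested genes listed as repressed by Foxp3, 6 were higher, 2 lower and 3 did not pass in spleen. In lung 6 were higher, 1 lower and 4 did not pass. The medians were 0.86 in spleen and 0.62 in lung, also with genes at 0 set to their bounds. Satb1, given among the locus regulators, was the lung gene called lower here. The kinase Zap70 rose by 0.98 ± 0.16 in spleen (adjusted p = 0.000499) and 1.19 ± 0.16 in lung (adjusted p = 0.000216). Il4, the Th2 cytokine, had 0 counts in every WT library and was at least 351-fold higher in spleen ∆Foxp3 and at least 585-fold higher in lung ∆Foxp3, against 3 counts over the group. In the same list Il21 held 276 counts over spleen ∆Foxp3 and 1 over spleen WT, a pooled ratio of 369.8 with a 95% counting interval of 65.8 to 14659. Its fitted log2 difference of 8.20 became 9.83 without spleen WT 2 and 6.71 without spleen ∆Foxp3 2. In lung, Il21 held 45 counts over ∆Foxp3 and 0 over WT, at least 15.4-fold higher against 3 counts over the group. Pde3b rose in spleen by 3.18 ± 0.57 (adjusted p = 0.00087), with 3.94 without spleen WT 2 and 2.56 without spleen ∆Foxp3 1. Ifng rose in lung by 4.07 ± 0.71 (adjusted p = 0.00137), with 4.70 without lung WT 3.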

How the data were processed

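RNA of 12 sorted Treg libraries was made by Smart-seq2, with no molecular identifiers, and sequenced. The build mm10, the aligner STAR 2.7.3a and featureCounts of Subread 2.0.0 are named, per the submitters' processing notes. The sources used here name neither the gene annotation nor a strand option, so genes that share exons are uncertain. Raw read counts by gene symbol, whole numbers in 1 table, were deposited by the authors and used as they stood.

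Counts were tested with edgeR 4.0.16 (R 4.3.3): TMM factors, filterByExpr as the filter on low counts (13295 genes left), robust quasi-likelihood dispersion and the group as the only term in 1 fit of the 12 libraries. Two-sided p-values were adjusted over all genes tested (Benjamini-Hochberg), with 0.05 as the threshold of a call. Intervals are 95% intervals of the fit. Levels are TMM-scaled CPM, and CPM per kb uses the union of GENCODE vM21 exons (GRCm38). Counting intervals (Clopper-Pearson) and floors of 3 counts cover counting error only. The procedure was tested on simulated data. Alternatives used DESeq2 1.42.0, limma 3.58.1, other scalings, filters and fits, and left out each library.

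The 10 genes and the gene lists were chosen with earlier results of these data known, and the 3 libraries left out together were picked from an earlier look at them. Genes named beyond the 10 were up to 4 called genes per list and tissue by adjusted p, the gate genes, Cd3e, and the genes nearest in profile. A list gene given for a single tissue can therefore also be called in the other. Genes overlapping the 10 and the marker genes named were chosen after their values were seen. A few genes that these rules name are not reported here.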

Additional observations from a re-analysis of the deposited data

Results flagged for a closer look

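In the interaction, edgeR called 0.925% of all genes tested. Genes of the lists beyond those given here can also be among them. By that test, adjusted over all genes tested, the difference between genotypes itself differed between lung and spleen for 6 genes of the lists. Of these, 5 are genes of dividing cells, whose ∆Foxp3 minus WT difference was smaller in lung, where that of Mki67 did not pass (adjusted p = 0.0941): the interaction (lung minus spleen) was log2 −2.58 for Ccna2 (adjusted p = 0.00741), −2.69 for Cdk1 (adjusted p = 0.0387), −3.08 for Kif11 (adjusted p = 0.00267), −2.50 for Mki67 (adjusted p = 0.021) and −2.83 for Uhrf1 (adjusted p = 0.00599). Their WT levels also differed between tissues, Mki67 being at 28.7 CPM on average in spleen WT and 141 in lung WT. Socs2, a feedback inhibitor of cytokine signals, fell in spleen and did not pass in lung, with an interaction of 1.26 (adjusted p = 0.0338) and means of 124 CPM in spleen WT, 58.9 in spleen ∆Foxp3, 115 in lung WT and 132 in lung ∆Foxp3. The allele labels of the ∆Foxp3 groups differ between the tissues, so tissue and allele cannot be told apart here.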

How the results depend on the processing

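Among 26 alternatives (25 for the interaction), the spleen calls of Foxp3 and Foxp1 and the lung call of Foxp1 held under each one, and no called value changed sign. Of the 10 genes, 5 were called in spleen, 2 against a fold of 1.5, 3 with a replicate block within genotype, and 3 to 5 when single libraries were left out. Of all genes tested, 26.6% were called in spleen, 12.4% against a fold of 1.5 and 10.6% with that block. In lung 4 were called, 2 against a fold of 1.5, 1 with the block within genotype (Foxp1; adjusted p for Foxp3 = 0.052 and for Ikzf3 = 0.103), and 3 to 4 without single libraries, beside 20.2%, 7.01% and 4.9% of all genes tested in the first 3 of these fits. Without single libraries, 19.1% to 26.1% of all genes tested were called in spleen and 10.3% to 24.6% in lung. Between WT tissues 1 was called, 2 by DESeq2, 2 by limma, 0 against a fold of 1.5, and 0 to 2 without single libraries. Of all genes tested, 4.13% were called there, 7.87% by DESeq2, 8% by limma and 1.77% against a fold of 1.5. The share was 2.04% to 5.06% without single libraries. Between ∆Foxp3 tissues 0 were called, 1 with no low-count filter, 1 by DESeq2, 2 without the 3 libraries that stood apart earlier (spleen WT 1, lung WT 1 and lung ∆Foxp3 3), and 0 to 1 without single libraries. Of all genes tested, 0.722% were called there, 0.746% with no low-count filter, 1.77% by DESeq2 and 0.644% without the 3 libraries. Without single libraries the share was 0.298% to 1.11%. In the interaction 0 were called (0.925% of all genes tested), and 1 by limma (1.65% of all genes tested). Values that were not called changed sign as follows. Runx1 in spleen was −0.047 with upper-quartile factors, −0.024 with library totals, −0.10 by limma, −0.020 without the 3 libraries and −0.16 to 0.15 without single ones. Ikzf3 in spleen was 0.029 with the block within genotype. Nfatc2 in spleen was 0.10 by limma, 0.036 without the 3 libraries and −0.37 to 0.037 without single ones. Ikzf4 in lung was −0.031 with upper-quartile factors, −0.015 with a filter of 10 CPM, −0.038 by limma, −0.021 with a replicate block and −0.24 to 0.32 without single libraries. Nfatc2 in lung was −0.021 by limma, −0.057 without the 3 libraries and −0.029 to 0.18 without single ones. The cause was not tested. Of 18 same-numbered pairs of libraries, 0 had a correlation of deviations over 0.1 (−0.0766 to 0.0871). With deviations taken from means of 3 libraries, this check cannot tell whether same-numbered libraries are paired, and the labels do not say. A plain replicate block left 4 genes called in each tissue, beside 24.9% of all genes tested in spleen and 18.2% in lung. Longest-transcript lengths moved 28 of 48 family shares by more than their spread, no length scaling moved 34, and the lung difference of the Runx3 share was −1.07, 2.03 and 1.07 percentage points with exon union, longest transcript and no scaling. The number of libraries, 3 a group, limits the precision of each value.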
